A study of Mus musculus with 45 samples.

Results

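The genes described here were 10 genes of epithelial cell contact, chosen by name: the cadherins Cdh1 (E-cadherin) and Cdh2 (N-cadherin), the adhesion molecule Epcam, the tight junction membrane proteins Ocln (occludin), Cldn3, Cldn4, Cldn6 and Cldn7 (claudins), the tight junction scaffold Tjp1 (ZO-1) and the apical polarity gene Crb3. They were 10 of the 23575 genes in the deposited gene table, and 150 of the 276608 transcripts in the deposited transcript table belonged to them. Mouse neural progenitors were reprogrammed to induced pluripotent stem cells, and 45 cDNA libraries were read in long reads on Nanopore flow cells. The 22 libraries called R9 were made by direct cDNA from RNA enriched for poly(A) tails and held 448250 to 1391635 reads each. The 23 called R10, for the newer flow cell chemistry, were amplified by PCR and held 567129 to 4245818 reads each.

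The progenitors were stable transfected lines derived from Oct4-GFP embryonic stem cells, labelled O4G. Those that could be reprogrammed had the genotype OKMS-Luciferase-AS or OKS-Luciferase-AS. Doxycycline induced the factors; as the names have it, both sets hold Oct4, Klf4 and Sox2, and OKMS adds Myc. The groups were progenitors in progenitor medium (OKMS, OKS and wild type, 4 libraries in each chemistry); wild-type progenitors after 2 days in serum with LIF and doxycycline, which induces no factor in them (2 R10 libraries and 1 R9 library); and OKMS or OKS cells in the same serum medium with doxycycline. The serum series held 1 library per system and day, at days 2, 4, 6, 10, 14 and 20 in R9 for both systems. In R10 it held days 2, 4, 6, 10 and 18 for OKMS and days 2, 6 and 18 for OKS. A further 5 libraries came from OKMS or OKS cells in 2i-LIF, which has no serum but LIF with the inhibitors CHIR-99021 and PD0325901, and whose described recipe lists no doxycycline. The R9 cultures were moved to it from day 6, and for the R10 libraries of day 18 that day is not in the labels. Wild-type embryonic stem cells of the lines O4G, R1 and R1-Clone3, all kept in 2i-LIF, gave 7 R10 and 2 R9 libraries. Nothing in the labels says that libraries of a group came from separate cultures, so the p-values measure only the spread between these libraries. Nor do the labels say whether R9 and R10 libraries of the same name came from separate cultures.

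Cadherins are calcium-dependent proteins that join neighbouring cells at adherens junctions. Epithelial cells and pluripotent stem cells carry E-cadherin, neural progenitors carry N-cadherin, and the exchange of one for the other is called the cadherin switch. Claudins and occludin seal tight junctions, ZO-1 ties them to the actin skeleton, and Crb3 helps to set up the apical side of an epithelial cell. The gain of such genes, the mesenchymal-to-epithelial transition, is known as an early step of reprogramming in fibroblasts, and the repressors of the Snail, Zeb and Twist families act in the opposite direction.

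Snail and Zeb proteins are known to bind the E-box letters CACCTG or CAGGTG, which are each other's reverse complement, so that the pair of words covers both strands. RefSeq promoter windows (GRCm38.p6, the 250 bases before a gene's start) were found for 8 of the 10 genes, and none was matched for Cdh1 or Cdh2. At least 1 of these words occurred in 5 of the 8 windows and at least 2 in 3 of them. Over all 32851 promoter windows of that length, 17.2% held at least 1 and 2.06% at least 2. Epcam had 2 (at −187 and −19), Cldn4 had 1 (at −14), Cldn6 had 1 (at −93), Cldn7 had 2 (at −97 and −57) and Crb3 had 3 (at −118, −63 and −7). The letters were not found in the windows of Ocln, Cldn3 and Tjp1. The windows of Epcam (chr17:87635729-87635978, plus strand), Cldn4 (chr5:134946935-134947184, minus strand) and Crb3 (chr17:57061951-57062140, plus strand, ending where a GENCODE exon of the gene begins) are shown, with the E-box letters in capitals. In these 3 a match lies before the first base of the window that is in a GENCODE exon of the gene. In the deposited annotation Crb3 begins upstream of its window (at 57059925), as does Cldn4 (at 134986961), and Epcam begins inside its window (at 87635952). The printed Crb3 stretch has 190 bases and 1 of the 3 matches, since the other two reach into the annotated exon, as do the matches of Cldn6 and Cldn7. A match is a description of the sequence and no evidence of binding.
Epcam: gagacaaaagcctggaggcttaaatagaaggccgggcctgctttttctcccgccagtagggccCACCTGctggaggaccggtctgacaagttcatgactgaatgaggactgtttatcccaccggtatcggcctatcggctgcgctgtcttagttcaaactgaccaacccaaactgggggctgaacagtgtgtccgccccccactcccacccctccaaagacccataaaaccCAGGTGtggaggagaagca
Cldn4: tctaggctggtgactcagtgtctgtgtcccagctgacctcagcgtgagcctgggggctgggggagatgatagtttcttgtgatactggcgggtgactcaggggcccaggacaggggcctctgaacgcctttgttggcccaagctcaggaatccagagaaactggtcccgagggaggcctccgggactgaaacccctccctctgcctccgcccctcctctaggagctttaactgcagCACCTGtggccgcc
Crb3: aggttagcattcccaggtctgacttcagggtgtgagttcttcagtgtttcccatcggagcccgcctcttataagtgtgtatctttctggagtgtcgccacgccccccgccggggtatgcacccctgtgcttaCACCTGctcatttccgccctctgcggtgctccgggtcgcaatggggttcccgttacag

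The end points were compared first. In stem cells 8 of the 10 genes were higher than in progenitors and Cdh2 was lower, in both chemistries. In R9, Ocln and Cldn6 rest on 7 stem cell reads each, and DESeq2 did not call them (adjusted p = 0.154 and 0.157). Cdh1 (chromosome 8, 106603318 to 106670246, GRCm38) was at 1.32 CPM in OKMS, 1.75 CPM in OKS and 0 CPM in both wild-type progenitor libraries of R10, and at 63.9, 143 and 174 CPM (lowest, median and highest) in the 7 stem cell libraries. None of the 4 R9 progenitor libraries gave a Cdh1 read, and the R9 stem cells were at 55.8 and 98.5 CPM. Pooled over libraries, 3015 Cdh1 reads in R10 stem cells stood against 6 in progenitors, a 242-fold higher level, and the fold was at least 80.0 in R9, where the progenitors gave no read and a floor of 3 reads over the group was used. On the log2(CPM + 1) scale, on which all differences below are given, Cdh1 was higher by 6.38 (SE 0.31; limma, adjusted p = 8.77e-11) in R10.

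Cdh2 went the other way. It was at 125, 151, 160 and 184 CPM in the R10 progenitors and at 0.29, 3.37 and 6.72 CPM (lowest, median and highest) in the stem cells, 50.5-fold higher in progenitors after pooling. The R9 progenitors were at 92.3, 139, 164 and 170 CPM, and the R9 stem cells gave 2 Cdh2 reads in all. The log2 difference was −5.44 (SE 0.39; limma, adjusted p = 7.29e-09) in R10 and −6.36 (SE 0.46; adjusted p = 0.000139) in R9.

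Epcam, a homophilic adhesion molecule of epithelia and stem cells, gave 3 reads in the 4 R10 progenitor libraries and was at 12.3, 87.3 and 96.8 CPM (lowest, median and highest) in R10 stem cells, a log2 difference of 5.64 (SE 0.45; limma, adjusted p = 2.69e-08). In R9 no progenitor gave an Epcam read, and the level was at least 62.4-fold higher in stem cells. Cldn4 gave no read in R10 progenitors. Its stem cell levels were 38.5 to 70.6 CPM, and pooled they were at least 205-fold higher. The other 4 tight junction genes and Crb3 were called higher too. The R10 stem cell mean was 10.5 CPM ± 4.9 (SD, n = 7) for Cldn3, 9.29 ± 3.68 for Ocln, 5.96 ± 3.51 for Cldn7 and 3.75 ± 2.31 for Cldn6. Crb3 was at 2.94 ± 1.36 CPM (SD, n = 7). Each of these 5 genes had 1 or 2 reads in all R10 progenitors together, and in none did the groups overlap. For Cldn7 the lowest stem cell value (1.18 CPM) was barely above the highest progenitor value (1.17 CPM). The share of all genes without such overlap was not computed.

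The scaffold gene Tjp1 was present at both ends. It was at 66.6, 73.4, 93.0 and 112 CPM in R10 progenitors and at 38.1, 44.6 and 87.8 CPM (lowest, median and highest) in stem cells. The groups overlapped through 1 stem cell library, and the log2 difference of −0.79 (SE 0.21; limma, adjusted p = 0.00324) did not reach the size of 1 required for a call. In R9, Tjp1 was at 63.3, 70.9, 76.5 and 96.1 CPM against 24.2 and 29.4 CPM, and was called lower (−1.47, SE 0.20; adjusted p = 0.00168).

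The counts were therefore 8 higher and 1 lower of 10 in R10, where 22.4% of all 15415 genes tested were called higher and 23.5% lower. They were 8 higher and 2 lower of 10 in R9, where 17.6% and 18.4% of 15746 genes were called. The median difference over the 10 genes was 2.69 in R10 and 3.27 in R9, beside 0.01 and −0.07 over all genes. The difference between the chemistries was itself tested, and it passed for 0 of the 10 genes by limma and edgeR, with 3.63% of 18341 genes called by limma. The smallest adjusted p belonged to Cldn7 (R10 minus R9 −1.94, SE 0.64; limma, adjusted p = 0.0869).

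One R10 stem cell library, of line R1 with no replicate number, stood apart from the other 6. Its Cdh1 was 63.9 CPM (127 to 174 in the others), its Epcam 12.3 (68.9 to 96.8), its Ocln 1.87 (8.51 to 13.9) and its Tjp1 87.8 (38.1 to 48.4). Its mitochondrial genes made up 0.124% of reads, against 1.81% to 2.35% in the others and 0.153% to 1.12% in the R10 progenitors. Transcripts matching only a part of a known one (incomplete splice matches) made up 10.5% of its TPM. That share was 14.6% to 15.6% in the others and 7.95% to 9.33% in the R10 progenitors. In both measures the other 6 thus differed from the progenitors as well. Without the unnumbered library the 8 and 1 calls of R10 remained and Tjp1 was still not called. Ocln was then called in the test between chemistries (interaction 1.26; limma, adjusted p = 0.046). The part of library quality in these values was not tested.

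The labelled cell types could be checked against their markers. The summed level of 8 neural progenitor markers was 4605 to 7259 CPM in progenitors and 7.01 to 47.8 CPM in stem cells. The sum of 8 pluripotency markers was 10.8 to 30.4 CPM in progenitors and 10476 to 13163 CPM in stem cells. In bulk samples like these, fewer cells of a type and less RNA per cell cannot be told apart.

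Wild-type progenitors in serum and doxycycline show these genes in that medium without factors. Cdh2 rose: it was at 256 and 317 CPM after 2 days and at 151 and 125 CPM in progenitor medium in R10, a log2 difference of 1.05 (SE 0.23; limma, adjusted p = 0.0227). Tjp1 was at 186 and 127 CPM against 112 and 93.0 CPM, a difference of 0.58 (SE 0.26) that was not called (adjusted p = 0.153). Cdh1, Cldn3, Cldn4, Cldn6, Cldn7 and Epcam gave no read in the 2 R10 serum libraries, Ocln reached 1.17 CPM and Crb3 0.78 CPM, and none of these 8 passed the filter on low values. The call of Cdh2 was 1 of 2 genes tested where 26.8% of 14688 genes were called in either direction, and it was lost by edgeR on recovered reads (1.01; adjusted p = 0.0558) and without any 1 of the 4 libraries (0.896 to 1.202; limma, adjusted p 0.0934 to 0.27). Each of those left-out fits has 1 library in an arm, which is assumed to vary like the other group. In R9, also with 1 serum library, the difference was 1.08 (adjusted p = 0.309). Of the listed genes beside these 10, 6 of 10 tight junction and polarity genes tested were higher and 0 lower (median log2 difference 1.47 against 0.12 over all genes), with Cgnl1, a cytoplasmic tight junction protein, at 2.75. Of 11 adherens junction genes tested, 4 were higher and 1 lower (median 1.03). The neural catenin Ctnna2 had the largest rise (4.32), and the cadherin Cdh4 fell by 2.497. In the same libraries 4 of 6 mesenchymal markers were higher (summed level 1121 to 1164 CPM against 48.9 to 61.1 CPM) and 3 of 8 neural progenitor markers lower, and their part in these values was not tested. Zeb1, a repressor of Cdh1, fell by 2.73 in the same comparison, with Cdh1 at 0. Of 6 listed repressors tested, 0 were called higher and 1 lower. Their median difference was 0.40 beside 0.12 over all genes.

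At day 2 with the factors, Cdh1 in R10 was at 8.69 CPM in OKMS and 3.73 CPM in OKS, against 0 in both wild-type libraries in the same medium, and in R9 it was at 7.91 CPM in OKMS and 1.34 CPM in OKS. The OKMS and OKS progenitors of R10 already had 1.32 and 1.75 CPM (3 reads each) before induction, and those of R9 had 0. Every factor library of day 2 was above every wild-type serum library for Cdh1, that of OKS in R9 through 1 read. The share of all genes with such a separation was not computed. The log2 difference in R10 was 2.76 (SE 0.61), and limma did not call it (adjusted p = 0.0802). edgeR on the recovered reads did (log2 difference 6.77, adjusted p = 0.0402). Of the 6 genes tested limma called 0, where it called 0.740% of 15402 genes, and edgeR called 1, where it called 2.17%. In R10, Epcam was at 3.16 and 1.87 CPM and Cldn3 at 6.32 and 1.87 CPM in the OKMS and OKS libraries, against 0 in wild type. Neither was called by limma (adjusted p = 0.184 and 0.152) or edgeR. In R9, Epcam was at 2.26 CPM in OKMS and 0 in OKS, against 1.41 CPM in wild type. Cldn3 gave no read in these R9 libraries. Cdh2 was not called in R10 either (−0.66, SE 0.45; limma, adjusted p = 0.51).

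**Figure D1:**
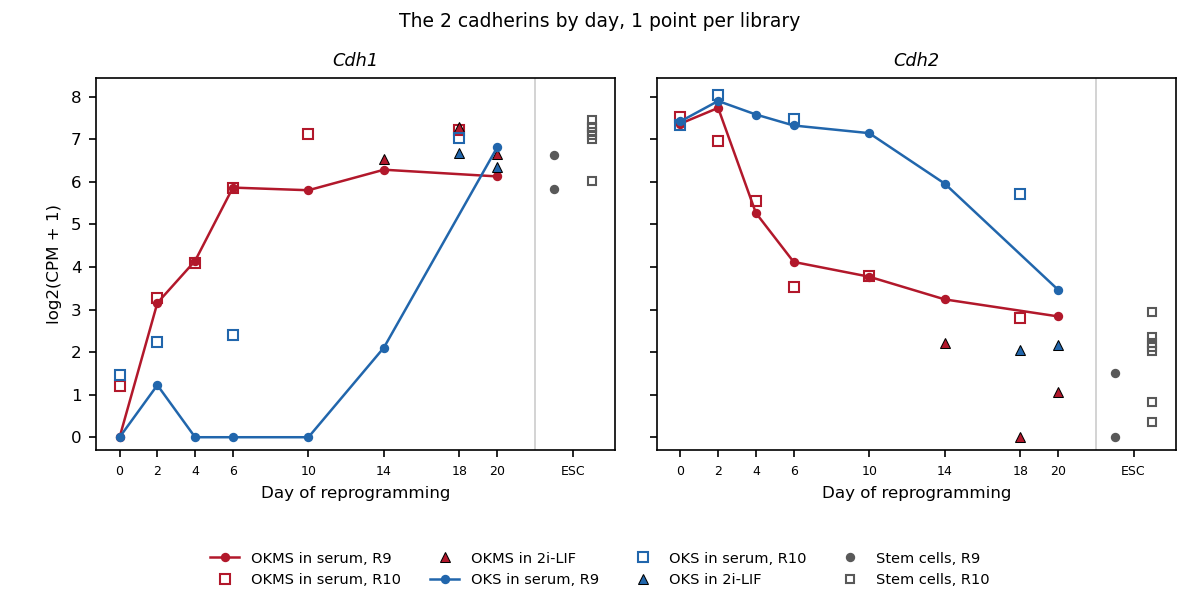
Cdh1 (left) and Cdh2 (right) as log2(CPM + 1) by day in OKMS (red) and OKS (blue), 1 point per library; circles joined by lines are R9 serum libraries, open squares R10 serum libraries, triangles 2i-LIF libraries and grey points stem cells. In OKMS the rise of Cdh1 and the fall of Cdh2 lie mostly before day 6. In OKS R9 Cdh1 is near 0 until day 10 and above both R9 stem cell libraries at day 20.

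The time course in serum is given per system, since each day had 1 library per system and chemistry. In OKMS R9 Cdh1 was at 0, 7.91, 16.7, 57.3, 54.9, 77.0 and 69.0 CPM at days 0, 2, 4, 6, 10, 14 and 20. At day 6 it had reached the level of the lower R9 stem cell library (55.8 CPM), and it was at 54.9 CPM or above from then on. In OKS R9 it was at 0, 1.34, 0, 0, 0, 3.31 and 111 CPM on the same days. In OKS nearly all of the gain therefore fell between days 14 and 20.

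Cdh2 in OKMS R9 was at 164, 212, 37.6, 16.4, 12.7, 8.44 and 6.16 CPM at the same days. It was at 170, 238, 191, 159, 141, 61.2 and 10.1 CPM in OKS. In both systems of R9 it was above the level of its own progenitors at day 2, as it was in wild-type cells in serum, whereas in R10 this held for OKS (262 against 160 CPM) and not for OKMS (123 against 184 CPM). In OKMS it went from 212 to 37.6 CPM between days 2 and 4, while in OKS it was still at 141 CPM at day 10.

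In the R10 libraries OKMS was at 8.69, 16.0, 56.5, 138 and 148 CPM of Cdh1 and 123, 45.8, 10.6, 12.7 and 5.94 CPM of Cdh2 at days 2, 4, 6, 10 and 18. OKS was at 3.73, 4.27 and 131 CPM of Cdh1 and 262, 178 and 51.2 CPM of Cdh2 at days 2, 6 and 18. At day 18, OKS therefore held both cadherins.

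Per kilobase of transcript, the level of Cdh1 can be set against that of Cdh2. The share of Cdh1 in the summed level of both was 3.88% at day 2, 32.5% at day 4, 79.1% at day 6 and 92.4% at day 20 in OKMS R9. It was at most 0.61% through day 10, 5.54% at day 14 and 92.3% at day 20 in OKS R9. In R10 it was 27.4% at day 4 and 85.3% at day 6 in OKMS, and 2.53% at day 6 and 73.4% at day 18 in OKS. Stem cells had 94.4% to 100%, cells in 2i-LIF 96.1% to 100% and progenitors 0 to 1.17%.

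In serum, Epcam rose past the level of the stem cells, which were kept in 2i-LIF. In OKMS R9 it was at 0, 2.26, 25.04, 201, 532, 212 and 211 CPM at days 0 to 20. In OKS R9 it was at 0, 0, 0.95, 4.02, 0, 32.3 and 345 CPM. The peak in OKMS, at day 10, was 8.83-fold above the mean of the R9 stem cells (60.2 CPM), and OKS at day 20 was 5.73-fold above it.

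In OKMS R9 the claudins and Crb3 were first detected after Cdh1, at day 4 or 6, and were highest at day 10. In R10, Cldn3 was already at 6.32 CPM in OKMS at day 2. Cldn4 was at 0 through day 4 and then at 12.3, 153, 90.7 and 43.1 CPM at days 6, 10, 14 and 20 in OKMS R9. Cldn6, a claudin of early embryonic epithelia, was at 0 through day 4 and then at 19.1, 145, 82.3 and 35.7 CPM. Its peak, in serum, was 43.9-fold above the mean of the R9 stem cells in 2i-LIF, 3.30 CPM, which rests on 7 reads.

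Cldn7 followed the same course, with 21.8, 114, 68.6 and 16.0 CPM at days 6 to 20 after 0 through day 4. Crb3 was at 23.2, 61.9, 28.5 and 8.62 CPM on those days, and Cldn3 at 6.26 CPM on day 4 and 27.3, 43.6, 21.1 and 1.23 CPM from day 6. The fall from day 10 to day 20 thus held for all 5 genes, and was 7.12-fold for Cldn7 and 7.18-fold for Crb3. In R10 OKMS the same 5 genes fell between days 10 and 18, Cldn6 from 297 to 56.4 CPM and Cldn3 from 100 to 23.7 CPM.

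In OKS R9 these genes were at or under 4.14 CPM through day 14. At day 20 Cldn3 was at 27.3 CPM, Cldn4 at 139, Cldn6 at 177, Cldn7 at 160 and Crb3 at 51.7. The last OKS library of R9 was thus higher in all 5 than the last OKMS library of R9. In R10 at day 18 OKS was lower than OKMS for Cldn3 (7.68 against 23.7 CPM), Cldn4 (34.6 against 134) and Cldn7 (109 against 123), and higher for Cldn6 (128 against 56.4) and Crb3 (39.7 against 34.1). Ocln was at 6.82 CPM or less in both systems in R9. That highest value, 5 reads in OKMS at day 6, was 2.07-fold the R9 stem cell mean of 3.29 CPM (7 reads). In R10 Ocln was at 17.0 CPM in OKMS at day 10, and at 5.94 CPM in OKMS and 12.8 CPM in OKS at day 18, where the stem cells had 1.87 to 13.9 CPM. Tjp1 was present throughout in R9, between 32.0 and 68.9 CPM in OKMS and between 53.5 and 103 CPM in OKS from day 2. In R10 the factor libraries of day 2 were at 78.3 and 101 CPM.

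**Figure D2:**
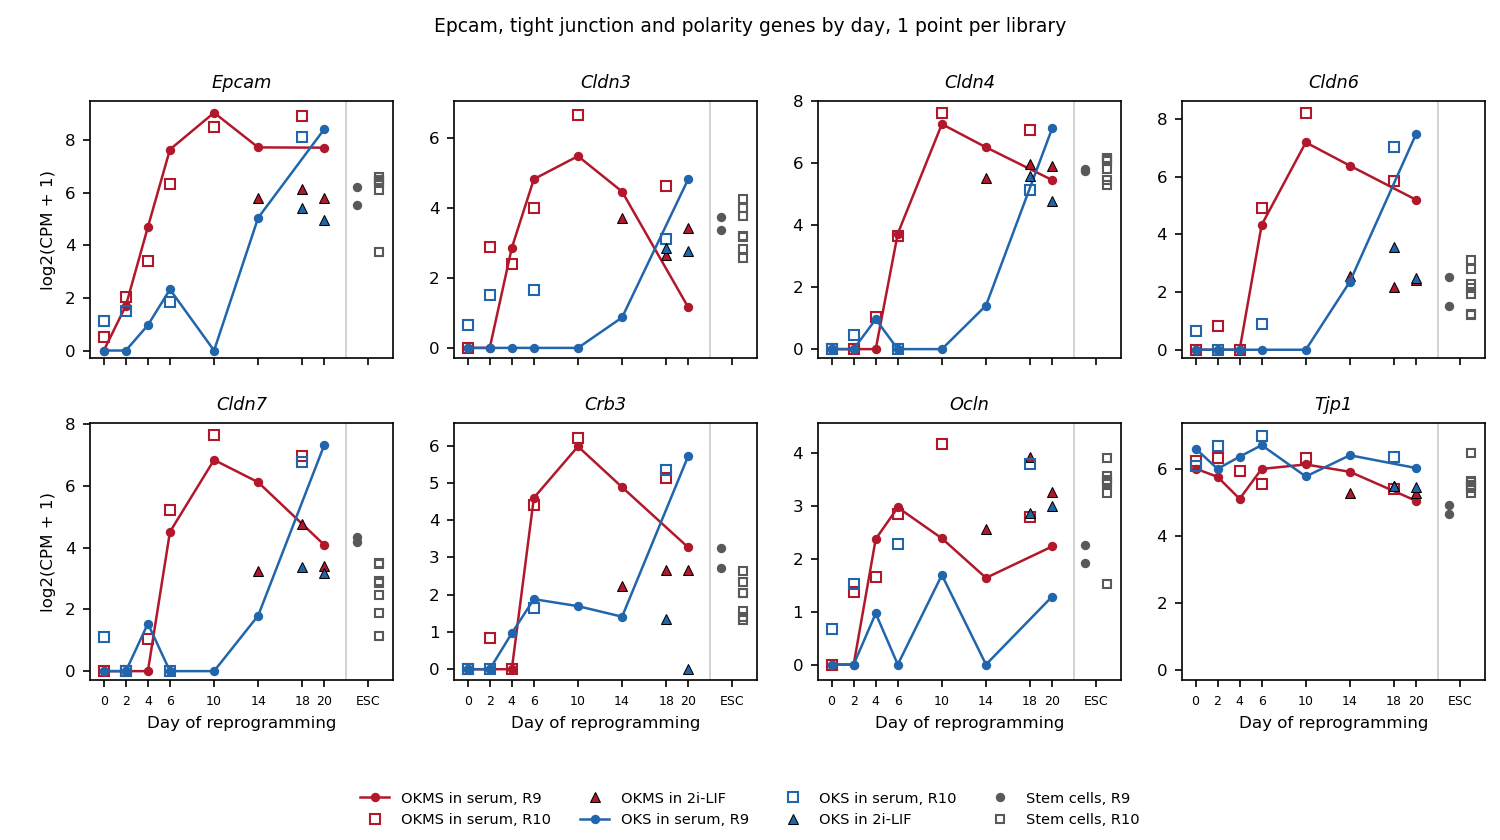
Epcam, claudins, Crb3, Ocln and Tjp1 as log2(CPM + 1) by day in OKMS (red) and OKS (blue), 1 panel per gene and 1 point per library; circles joined by lines are R9 serum libraries, open squares R10 serum libraries, triangles 2i-LIF libraries and grey points stem cells. Epcam, Cldn3, Cldn4, Cldn6, Cldn7 and Crb3 peak at day 10 in OKMS, above the stem cells of R9, and are highest at day 20 in OKS.

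A test of any change over days, with the 2 systems serving as replicates of each day, called Cdh2 (largest log2 difference from day 0 −4.24; limma, adjusted p = 0.0171) and Epcam (8.08; adjusted p = 0.0482), 2 of 10 genes where 10.7% of 19357 genes were called. edgeR on recovered reads called 8, all but Ocln and Tjp1, where it called 23.6% of genes. The limma call of Epcam was lost without any 1 of 9 of the reprogramming libraries or the OKMS progenitor library (adjusted p 0.0571 to 0.133), each of which leaves its day with 1 library. Its largest difference was still 8.08 in 8 of these 10 fits, and it was 6.40 without the OKS library of day 20 and 6.26 without the progenitor library. Cdh2 was not called without the OKS library of day 20 (−3.57; adjusted p = 0.0809).

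The timing of each gene was summarised as its midpoint day, the day at which, by interpolation on the log2 scale, it lay midway between the R9 progenitor mean and the R9 stem cell mean. In OKMS the order was Cdh1 (day 1.98), Tjp1 (2.71), Epcam (2.83), Ocln (2.88), Cldn3 (3.24), Cldn6 (4.47), Crb3 (4.65), Cldn7 (4.95), Cldn4 (5.62) and Cdh2 (8.09). On the log2 scale the gain of Cdh1 thus passed its midpoint before Cdh2 had fallen through its own. This order depends on the scale. In CPM, most of the fall of Cdh2 (212 to 37.6 CPM between days 2 and 4) came before most of the gain of Cdh1. Cdh1 was at 16.7 CPM at day 4 and 57.3 CPM at day 6, and its OKMS day rests on 7 reads at day 2. In OKS the order was Crb3 (5.15), Ocln (8.47), Cldn6 (11.7), Epcam (12.3), Cldn7 (14.4), Cdh1 (15.3), Cldn3 (15.4), Cldn4 (15.7) and Cdh2 (18.9), and Tjp1 did not reach it. The Cdh2 midpoint depends on an R9 stem cell level of 2 reads, and with a pseudocount of 0.25 it was day 12.6 in OKMS and not reached in OKS. The OKS days of Crb3 and Ocln rest on 1 or 2 reads, and the OKMS day of Ocln on 2 reads at day 4. The OKMS day of Cldn3 rests on 3 reads at day 4, and that of Epcam on 2 reads at day 2 and 12 at day 4. For Cldn6, Crb3, Cldn7 and Cldn4 the OKMS day lies between 0 reads at day 4 and first detection at day 6. Their order is also that of the R9 stem cell means that set the mark, 3.30, 7.05, 18.3 and 54.4 CPM. Those stem cells were kept in 2i-LIF. The order among these genes is therefore no order of onset. The day 4 library held 479225 reads, so that 1 read was 2.09 CPM. The OKMS day of Tjp1 rests on a low value at day 4 (33.4 CPM, 16 reads), after which the gene was back at 62.8 and 68.9 CPM at days 6 and 10, near its progenitor level of 63.3 CPM.

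The midpoint came earlier in OKMS for 10 of 10 genes, with medians of 3.85 and 14.4 days. The share of all genes with an earlier midpoint in OKMS was not computed, so the count is not shown to be particular to these genes. The OKS median was 10.2 days at a mark closer to the progenitor level and 8.81 days with a pseudocount of 0.25. These OKS medians leave out genes that did not reach the mark: 1 at the midpoint, 0 at the closer mark and 2 with the pseudocount. The day came earlier in OKMS for 8 of 10 in each of these 2 settings, with Cldn7 and Crb3 earlier in OKS. It came earlier in OKMS for 9 at a mark closer to the stem cell level, which Cdh2 did not reach. The order of the genes within OKMS depended on the mark. At the mark closer to the progenitor level Tjp1 came before Cdh1, and Cldn4, Cldn6, Cldn7 and Crb3 came after Cdh2. At the mark closer to the stem cell level Ocln, Epcam, Tjp1 and Cldn3 came before Cdh1 (day 4.62). With 1 library per day these orders are descriptions without a test.

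**Figure D3:**
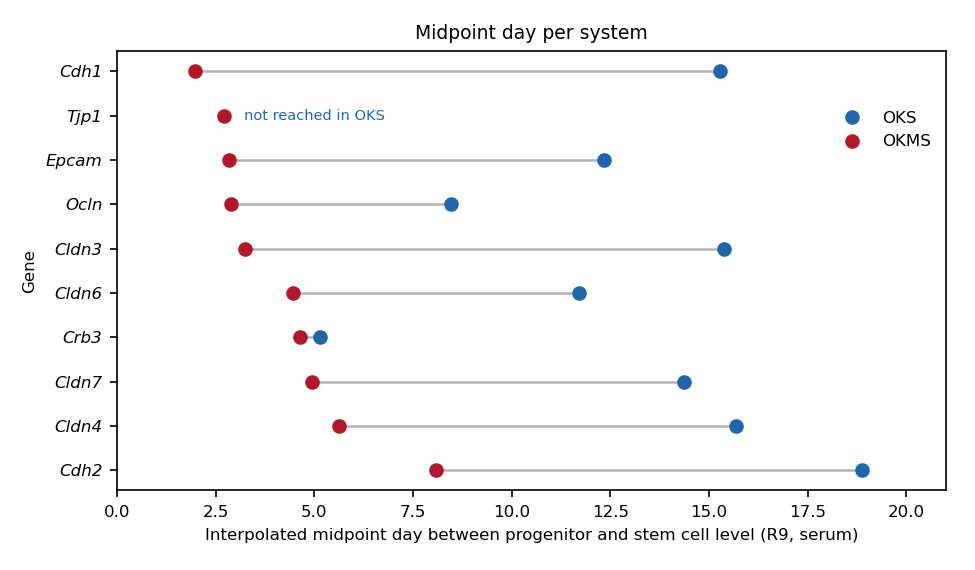
Midpoint day of each gene in OKMS (red) and OKS (blue) in R9 serum libraries, on a linear day axis; a grey line joins the systems. All points of OKMS lie at or before day 8.09, and those of Cdh1, Cldn3, Cldn4, Cldn7 and Cdh2 in OKS lie at or after day 14.4.

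Matched by day, 6 pairs of R9 libraries compared OKMS with OKS. Cdh1 was higher in OKMS in 5 of 6 pairs (log2 difference 3.54, SE 0.70; limma, adjusted p = 0.0036), and the exception was day 20. Epcam was likewise higher in 5 of 6 (3.63, SE 0.87; adjusted p = 0.0086), and Cdh2 was lower in 6 of 6 (−2.07, SE 0.38; adjusted p = 0.00264). The other 7 genes were not called. Their differences were 2.25 for Cldn4, 2.21 for Cldn6, 2.18 for Cldn3, 1.82 for Cldn7, 1.27 for Ocln, 1.18 for Crb3 and −0.55 for Tjp1, with limma adjusted p from 0.0579 to 0.274. The 2 higher and 1 lower calls of 10 stood beside 6.93% and 11.0% of 14277 genes called higher and lower. With the 3 R10 day pairs added, Cldn3 (2.03) and Cldn4 (2.06) were called as well. The libraries of days 2 and 6 carry the same names in both chemistries. They may come from the same cultures, so the added pairs may not be independent of the R9 pairs.

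Markers of other states moved with this difference. In the OKMS against OKS comparison 4 of 7 pluripotency markers were higher, 5 of 7 neural progenitor markers lower and 4 of 6 mesenchymal markers lower, and the summed mesenchymal level was 225 to 1427 CPM in OKMS and 1019 to 3787 CPM in OKS. Of the repressors of Cdh1, Tcf4 (−2.48), Twist2 (−1.60) and Twist1 (−1.27) were lower in OKMS, and Zeb1 (−1.04; limma, adjusted p = 0.0625), Zeb2 (−0.82), Snai1 and Snai2 were not called. Their part in the difference was not tested.

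The repressors had their own courses. In stem cells against progenitors, Zeb1 (−4.00 in R10, −4.11 in R9), Zeb2 (−4.21 and −3.87), Twist1 (−3.21 and −4.64) and Tcf4 (−3.83 and −3.90) were lower, and Snai1 was not called (0.09 and −1.34). Zeb1 was at 141 CPM in OKMS and 182 CPM in OKS progenitors of R9 and at 21.5 and 16.0 CPM at day 2, and it also dropped in wild-type cells in serum, from 149.8 and 139 CPM to 32.5 CPM. Tcf4, a basic helix-loop-helix factor, was at 334, 267, 152, 121, 74.5, 82.3 and 18.5 CPM in OKMS R9 at days 0 to 20. In OKS it was at 494, 512, 791, 764, 901, 715 and 89.8 CPM. In OKS R9, Tcf4 thus stayed above its progenitor level until day 14 and was below it at day 20, still above the R9 stem cells (23.7 and 28.9 CPM). In R10, OKS was at 585 CPM in progenitors and at 517, 614 and 143 CPM at days 2, 6 and 18.

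**Figure D4:**
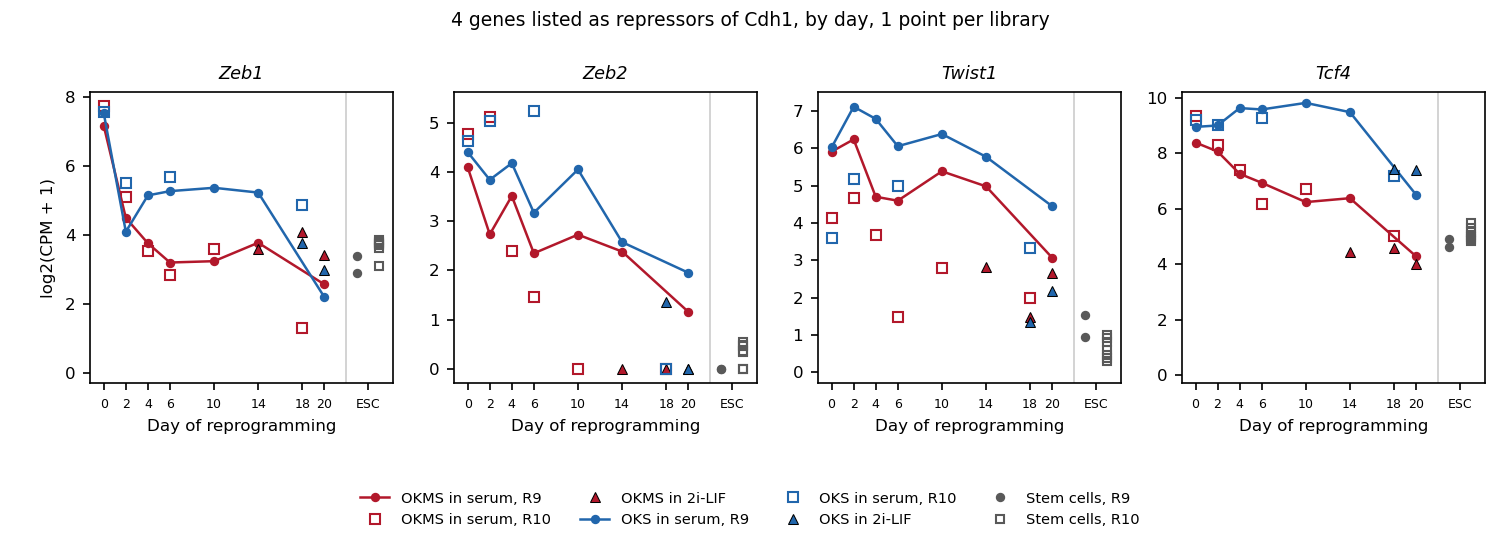
Zeb1, Zeb2, Twist1 and Tcf4 as log2(CPM + 1) by day in OKMS (red) and OKS (blue), 1 point per library; circles joined by lines are R9 serum libraries, open squares R10 serum libraries, triangles 2i-LIF libraries and grey points stem cells. Zeb1 is below its progenitor level from day 2 in both systems, and Tcf4 in OKS R9 is at 512 CPM or more from day 2 to day 14 and at 89.8 CPM at day 20.

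Serum and 2i-LIF were compared over 5 pairs matched for system, day and chemistry. Cdh1 did not differ between the media beyond the spread of the pairs. The serum libraries were at 77.0, 69.0, 148, 111 and 131 CPM and their 2i-LIF partners at 91.6, 100.0, 155, 80.3 and 102 CPM (OKMS days 14, 20 and 18, OKS days 20 and 18). The log2 difference was 0.00 (SE 0.19; limma, adjusted p = 0.994). Cdh1 was higher in 2i-LIF in all 3 OKMS pairs and lower in both OKS pairs.

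Epcam, Cldn6, Cldn7, Crb3 and Cdh2 were lower in 2i-LIF, each in 5 of 5 pairs. Cldn6 was at 82.3, 35.7, 56.4, 177 and 128 CPM in serum and at 4.89, 4.30, 3.53, 4.66 and 10.95 CPM in 2i-LIF in the same order (−3.74, SE 0.32; limma, adjusted p = 6.66e-07). Epcam was at 212, 211, 484, 345 and 282 CPM against 55.0, 54.8, 70.5, 30.3 and 42.2 CPM (−2.56, SE 0.21; adjusted p = 5.63e-07). The groups did not overlap for either gene, nor for Crb3 and Cdh2. The share of all genes without such overlap between the media was not computed.

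Crb3 was at 28.5, 8.62, 34.1, 51.7 and 39.7 CPM in serum and between 0 and 5.37 CPM in 2i-LIF (−3.09, SE 0.56; limma, adjusted p = 0.00103). Cldn7 was at 16.0 to 160 CPM in serum and at 8.15 to 26.4 CPM in 2i-LIF (−2.65, SE 0.37; adjusted p = 0.000105), with some overlap of the groups. Cdh2 was at 5.94 to 51.2 CPM in serum and at 3.66 CPM or less in 2i-LIF (−2.11, SE 0.49; adjusted p = 0.00699), and this call was lost without the OKS pair of day 18 (adjusted p = 0.0523). Cldn4 (−0.71, SE 0.32), Cldn3 (−0.55, SE 0.53), Tjp1 (−0.35, SE 0.23) and Ocln (0.77, SE 0.47) were not called.

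Of the 10 genes 0 were higher and 5 lower in 2i-LIF, beside 5.95% and 6.32% of 14935 genes. The neighbouring lists moved in both directions: Lsr, a protein of tricellular contacts, was lower (−2.03), as were the desmosome gene Pkp2 (−2.72), the epithelial splicing factor Esrp1 (−3.74) and the cadherin Cdh3 (−2.12), while Jam2 (1.69) and the epithelial transcription factor Elf3 (2.24) were higher. In counts, 0 of 11 other adherens junction genes were higher and 1 lower, 1 of 14 other tight junction and polarity genes was higher and 4 lower, 3 of 7 desmosome genes were lower, and 2 of 11 epithelial regulators were higher and 4 lower. The median difference was −0.62, −0.50, −0.89 and −0.18 in these lists and −0.03 over all genes. Of 8 pluripotency markers 6 were higher in 2i-LIF, and Acta2 (−6.44) and Tagln (−5.59), 2 of 6 mesenchymal markers, were lower. So were 2 of 4 trophoblast, 2 of 3 endoderm and 2 of 5 neural progenitor markers (medians −0.98, −1.77 and −1.43). Their part in the junction genes' difference was not tested. Doxycycline was listed for the serum medium only, so medium and factor induction cannot be told apart.

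**Figure D5:**
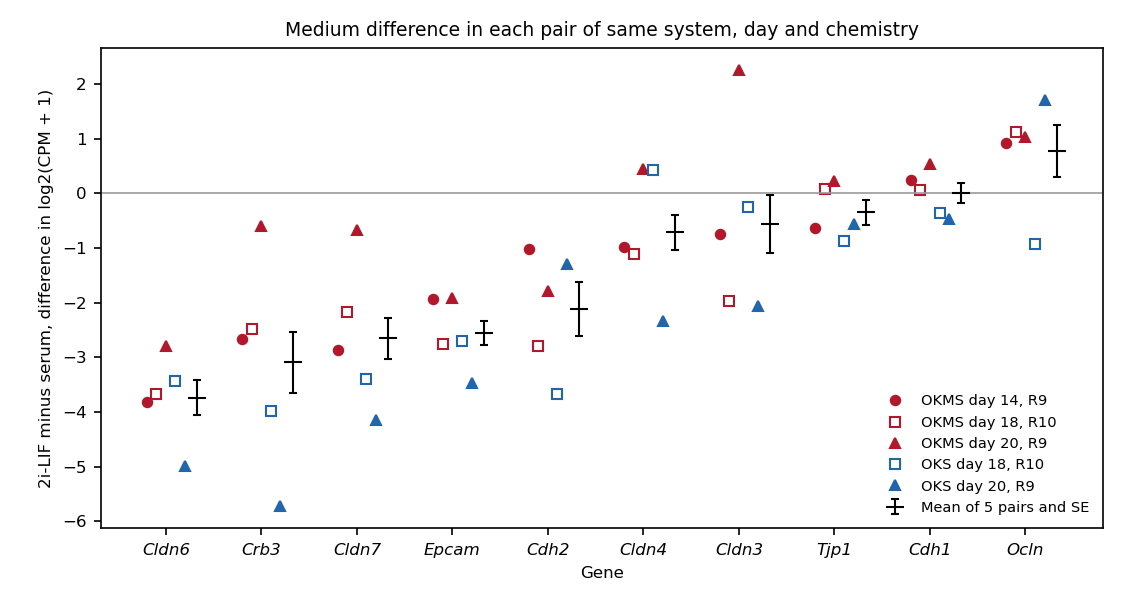
Difference in log2(CPM + 1), 2i-LIF minus serum, of each gene in each of the 5 pairs of the same system, day and chemistry, with the mean and SE of the fit as a cross with bars. All 5 points of Cldn6, Crb3, Cldn7, Epcam and Cdh2 lie below 0, and the mean of Cdh1 is at 0.00.

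The cells in 2i-LIF and the stem cells, kept in the same medium, were then compared with chemistry as a term. No gene of the 10 was called by limma or edgeR, where 3.36% and 1.49% of 14946 genes were called, and none had an unadjusted limma p under 0.05. Cdh1 was at 80.3 to 155 CPM in 2i-LIF cells and at 55.8 to 174 CPM in stem cells, a log2 difference of 0.09 (SE 0.22). The largest difference was 0.65 (SE 0.38), for Cldn6, and the most negative −0.53 (SE 0.45), for Crb3.

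Late serum cells (days 14, 18 and 20, 6 libraries) differed from stem cells at 5 genes. These cells were in serum with doxycycline and the stem cells in 2i-LIF, so cell type, medium and factor induction cannot be told apart here. The same 5 genes were the ones called lower in 2i-LIF than in serum. Cldn6 was at 4.14, 69.3 and 177 CPM (lowest, median and highest) against 1.31 to 7.54 CPM (3.87, SE 0.64; limma, adjusted p = 0.000242). Epcam was at 32.3, 247 and 484 CPM against 12.3 to 96.8 CPM (1.96, SE 0.53; adjusted p = 0.0124). Cdh2 was at 5.94, 9.25 and 61.2 CPM against 0 to 6.72 CPM (2.74, SE 0.60; adjusted p = 0.0029).

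Cldn7 (2.56, SE 0.79; limma, adjusted p = 0.0257) and Crb3 (2.18, SE 0.60; adjusted p = 0.0138) were the other calls. The groups overlapped for all 5 genes, and the lowest late serum value of Epcam, Cldn6, Cldn7 and Crb3 was that of OKS at day 14. Cdh1 was at 3.31, 94.2 and 148 CPM and was not called (−0.37, SE 0.57). These were 5 higher and 0 lower of 10 beside 8.19% and 9.17% of 14731 genes by limma; edgeR called the same 5 higher beside 8.86%.

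The late serum calls depended on the R10 libraries: 5 genes were called in R10 alone and 0 in R9 alone, where only 191 genes were called in all. Without the OKMS library of day 18, Epcam, Cldn7 and Crb3 were not called, and without the OKS library of that day Cldn7 and Crb3 were not. The serum libraries of the media pairs also entered here, so this comparison and the one between media share libraries. The late serum cells also held 553 to 14893 CPM of the 8 pluripotency markers (10476 to 13163 in stem cells), 225 to 3787 CPM of the 8 mesenchymal markers (170 to 344) and 29.6 to 298 CPM of the 8 neural progenitor markers (7.01 to 47.8, with Olig2 at 0 in all stem cell libraries). In the fit, 4 of 6 mesenchymal and 4 of 5 neural markers were higher and 6 of 8 pluripotency markers lower, and their part in the junction genes' difference was not tested. Of the trophoblast list 4 of 7 genes were in the table and 0 of 3 tested were called, and of the endoderm list 1 of 3 tested was higher.

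Other junction genes moved with the end points too. In R10 stem cells against progenitors, 8 of 13 other tight junction and polarity genes were higher and 0 lower, with F11r (4.92), an adhesion molecule of tight junctions, at the top. Of 5 desmosome genes 4 were higher, led by Dsg2 (4.80), and Pkp4 (−1.31) was lower. Of 10 epithelial regulators 9 were higher, led by Elf3 (6.94). Of 12 other adherens junction genes 5 were higher, led by the catenin Jup (2.20), and 3 lower, led by the cadherin Cdh4 (−6.00), another cadherin of neural cells. The medians were 1.70, 2.55, 3.39 and 0.36 beside 0.01 over all genes, of which 22.4% were called higher and 23.5% lower. The 3 of 12 adherens junction genes called lower were near that share. In R9, 3 of 11 adherens junction genes were higher and 3 lower, beside 17.6% and 18.4% of all genes. Of the other lists, 8 of 14 tight junction and polarity genes, 4 of 5 desmosome genes and 8 of 8 epithelial regulators were higher in R9, and 0 lower.

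Over all 22 R9 libraries, the genes whose log2 level correlated best with Cdh1, of 10952 with a mean of at least 5 CPM, were Tfap2c (Pearson r 0.97), Slc28a1, Spint1, Vamp8 and Gdf3 (each 0.96). For Cdh2 they were Cpne8 (0.98), Nrp1, Rab31, Tuba1a and Sardh (each 0.97). Among the 10 genes the strongest pairs were Cldn4 with Cldn7 (0.95), Cldn6 with Cldn7 (0.94) and Epcam with Cldn7 (0.91), and Cdh1 with Cdh2 had −0.91. These values describe libraries that share the course from progenitor to stem cell.

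Long reads also gave transcript levels in TPM, which divides by transcript length. Only Tjp1 had enough level at both ends for a test of transcript shares, and 0 of its 5 transcripts were called, where 19.5% of 31999 transcripts were. One Tjp1 transcript of 2975 bases with a retained intron made up 6.10% of the gene in progenitors and 0% in stem cells, which was under the 10 points required (limma, adjusted p = 0.00163). The 125-base Tjp1 exon at 65343615 to 65343739 on chromosome 7 was held by 97.7% of progenitor TPM and 100% of stem cell TPM over the transcripts that decide it (exact permutation test, two-sided, p = 0.218).

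A short Cdh1 transcript appeared beside the full-length one. The full-length transcript has 16 exons and 4463 bases. The short one has 390 bases in 3 exons: its first exon (175 bases) is a part of the full-length one (225 bases), its next exon (152 bases) starts with that of the full-length transcript (121 bases) and runs on past its end, and its last exon is the last 63 bases of the gene (chromosome 8, 106670184 to 106670246, within exon 16). It lacks 13 exons altogether. In R10 it was at 0 TPM in progenitors and in all libraries through day 6, although the full-length transcript was at 7.39 TPM in OKMS at day 6. It was at 53.1 TPM at day 10 and 60.6 TPM at day 18 in OKMS, at 74.2 TPM at day 18 in OKS, and at 74.8 and 29.1 TPM in the OKMS and OKS cells in 2i-LIF.

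The R10 stem cells had 1.72, 17.3 and 29.2 TPM of it (lowest, median and highest), with the lowest value in the unnumbered R1 library, and 5.85, 13.4 and 20.4 TPM of the full-length transcript. After removing the division by length, there were 0.71 to 1.00 short reads per full-length read in the 4 R10 libraries of day 18 and 0.026 to 0.21 in the 7 stem cell libraries, and the 2 ranges did not overlap. These rest on 4 to 12 short reads per library at day 18 and 1 to 29 in the stem cells. OKMS at day 10 in R10 lay between the 2 ranges, at 0.37 (11 short and 30 full-length reads). The day 18 libraries were the shallowest of R10, with 567129 to 780963 reads. Incomplete splice matches made up 16.4% to 20.3% of their TPM and 10.5% to 15.6% in the R10 stem cells. The part of these differences in the ratio was not tested. In R9 no library had more than 3 short reads, so ratios there are coarse. The 7 R9 libraries with any had 2 or 3, against 5 full-length reads in OKMS at day 10 and 13 to 16 in the other 6 (OKMS serum at days 14 and 20, the 2i-LIF libraries and the O4G stem cells). The R1 stem cells of R9 had 0 short and 8 full-length reads. The short transcript was in R9 at 22.8, 11.05 and 20.5 TPM at days 10, 14 and 20 in OKMS, at 13.3 to 19.8 TPM in 2i-LIF, and at 0 TPM in OKS at day 20, where the full-length transcript was at 8.90 TPM (25 reads). An antisense gene in the deposited annotation ends at the same base, 106670246, and the strand used in counting is not given in the sources used here, so reads of Cdh1 and of this antisense gene (2.99 to 26.4 CPM in R10 stem cells, 0 in progenitors) cannot be told apart.

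For the other genes the most abundant transcript in R10 stem cells was followed. It made up 35.8% of the gene for Epcam, 48.3% for Cldn6, 78.6% for Cldn7 and 39.1% for Crb3. For Cdh2 it was an incomplete match of 470 bases (17.0% of the gene in progenitors), and the full-length Tjp1 transcript of 27 exons made up 2.62% of Tjp1 in progenitors. Such shares are per length, which raises short transcripts. The Epcam transcript, of 1856 bases and 10 exons, was at 10.3, 79.5, 153, 72.0 and 77.7 TPM in OKMS R9 at days 4, 6, 10, 14 and 20 and at 11.1 and 124 TPM in OKS at days 14 and 20. The main Cldn7 transcript was at 149 TPM in OKMS at day 10 and 216 TPM in OKS at day 20, that of Cldn6 at 66.5 and 79.7 TPM and that of Crb3 at 34.2 and 38.0 TPM. In OKS these transcripts, like their genes, were highest at day 20. Antisense genes were also annotated over Cldn4 (3.1 to 8.5 CPM in R10 stem cells, up to 40.7 CPM in the serum series, 0 in progenitors), and the deposited spans of Cldn3 and Cldn4 overlap, which leaves their split uncertain.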

How the data were processed

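Gene levels are CPM values and transcript levels TPM values as the authors deposited them; reads were aligned with minimap2 2.24-r1122 to mm10, per the submitters' processing notes. The names of the deposited tables carry IsoQuant, a long-read quantification tool; its version and use of strand are not given in the sources used here. Deposited CPM values were whole multiples of 1 read (100% of values within 0.02), so reads were recovered, as they were for transcripts from TPM times length; 13 columns of the gene table matched no sample and were not used.

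Genes with at least 1 CPM in as many libraries as the smaller arm were tested on log2(CPM + 1) with limma 3.58.1 (R 4.3.3; lmFit, eBayes with trend, two-sided), over all genes of the table, with p adjusted by Benjamini-Hochberg. A call needed an adjusted p under 0.05 and a log2 difference of at least 1. Pairs were blocked for the systems and the media, and chemistry was a term in comparisons with stem cells. Every adjusted p is from limma unless edgeR or DESeq2 is named. Alternatives were edgeR 4.0.16 (quasi-likelihood) and DESeq2 1.42.0 on the recovered reads, a pseudocount of 0.25, quantile normalization, a minimum of 5 CPM, and leaving out libraries. Transcript shares were tested on the arcsine square root scale, with a change of at least 10 points for a call. Python 3.11.15 made levels, midpoint days and promoter searches. The fits were checked on simulated data.

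The text names all 10 genes, all listed repressors, the called gene with the largest rise and fall of each other list, and the 5 genes most like each cadherin. The members and lists were chosen with earlier results of these data known. Every library is a single deposited sample, and depth limits genes of a few reads: 1 read was worth 0.719 to 2.23 CPM in R9 and 0.236 to 1.76 CPM in R10.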

Additional observations from a re-analysis of the deposited data

Results flagged for a closer look

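In the R10 stem cells the unnumbered R1 library lay apart from the other 6 for 3 genes, by Dixon's criterion at 95%. Its Cdh1 level of 63.9 CPM was the lowest (127 to 174 CPM in the others). Its Epcam level of 12.3 CPM was also the lowest (68.9 to 96.8 CPM). Its Tjp1 level of 87.8 CPM was the highest (38.1 to 48.4 CPM). Of 15 sets of libraries and genes examined, chance alone gives about 1 in 20 such a value.

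The change of Cdh1 from serum to 2i-LIF had opposite signs in the systems. It was positive in all 3 OKMS pairs, with a mean of 0.28 on the log2(CPM + 1) scale, and negative in both OKS pairs, at −0.47 and −0.36. The difference between the systems was not tested.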

How the results depend on the processing

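Of 1195 values of single genes under the alternatives, 1097 kept their direction and their side of the threshold, and no called value changed sign. The counts of the 10 genes called in stem cells against progenitors (9 in R10, 10 in R9), in 2i-LIF against serum (5), in 2i-LIF cells against stem cells (0) and for transcript shares (0) stayed within 1.5 times under every alternative run. The test between chemistries called 0, and 1 without the unnumbered R1 library, an alternative chosen after seeing the data. For wild-type cells in serum the count of 1 became 0 by edgeR, 0 to 1 with a library left out, and 2 in R9, where Cdh2 was not called and the calls were Epcam and Crb3, with 1 read each in the single serum library; with the replicate number as a block it was 1, with 5605 genes called in place of 3940. Same-numbered libraries deviated together (r = 0.47 over 14688 genes). The labels name no shared source, so whether they are pairs is not known, and the reported fit does not pair them. For the factors at day 2 the count of 0 became 1 by edgeR and by DESeq2. For the time course the count of 2 became 1 with a pseudocount of 0.25, 1 with quantile normalization, 8 by edgeR, 4 by DESeq2, 0 without day 20, 1 without day 2 and 0 to 4 with 1 library left out. OKMS against OKS gave 3, and 5 with R10 pairs added. Late serum cells against stem cells gave 5, 0 in R9 alone, and 2 to 5 with 1 library left out. Over all genes, the calls ranged from 88 to 1696 (666) between chemistries, 0 to 5605 (3940) for wild type in serum, 0 to 464 (114) for the factors, 601 to 4573 (2078) for the time course, 1686 to 3236 (2567) for the systems, 1166 to 1932 (1832) for the media, 110 to 1438 (502) for 2i-LIF cells and 191 to 3610 (2558) for late serum cells, with the reported count in parentheses. Exon inclusion at a minimum of 5 TPM gave no value. The cause of these shifts was not tested.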
